A study of Mus musculus with 17 samples.

Results

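The 10 genes described here encode ion channels that set or carry signals for blood flow in brain capillaries and in the arterioles that feed them: Kcnj2, Kcnj8, Kcnj10, Piezo1, Trpv4, Trpm4, Kcnn3, Cacna1c, Ano1 and Kcnma1. They were chosen by name, not by a measured value, and each symbol matched 1 Ensembl ID of the deposited count table, which makes 10 of its 42687 genes. All 10 passed the filter on low counts, which left 18753 genes. RNA was sequenced from microvessels of the cerebral cortex of wild-type (WT) mice and of APP/PS1 mice, which carry mutant human transgenes and form amyloid plaques, at 10 to 11 months of age. The transgenic genotype is written APP in the sample labels and APP/PS1 in the series' own design text. The labels used here do not give the promoter of the transgenes, the sex of the mice or whether a library came from 1 mouse. All mice, controls included, received a peptide at 10 mg/kg into the peritoneum at intervals of 2 days for 2 weeks. The peptide was either gp91-ds-tat, an inhibitor of the superoxide-producing NADPH oxidase NOX2 (written NOX2 in the labels), or the control sgp91-ds-tat (taken here as the label SC). This gave 5 libraries of WT with control peptide, 5 of WT with inhibitor, 2 of APP/PS1 with control peptide and 5 of APP/PS1 with inhibitor. Since nothing in the labels says that libraries came from separate mice, the p-values measure the spread between these libraries.

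Capillaries sense the activity of nearby neurons and pass an electrical signal upstream. Potassium released by neurons and astrocytes opens the inward rectifier encoded by Kcnj2 in capillary endothelium, the cells hyperpolarize, and the signal spreads through gap junctions to the arteriole, which dilates. Calcium entry opposes or shapes this response: Piezo1 opens on mechanical force in endothelium, Trpv4 is a calcium-permeable cation channel of endothelium and glia, and Trpm4, Ano1 and Cacna1c depolarize mural cells (pericytes and smooth muscle) or bring calcium into them. Kcnj8, which assembles with the sulfonylurea receptor Abcc9 into the vascular ATP-sensitive potassium channel, Kcnn3 and Kcnma1 oppose contraction by letting potassium out, and Kcnj10 clears potassium at astrocyte endfeet, the astrocyte processes that wrap vessels.

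Total counts per library lay between 7316503 and 17862965, and the upper limit that a count of 0 allows, 3 counts, corresponded to 0.174 to 0.390 CPM (the count relative to the library size, which was scaled by the TMM method). That limit covers counting error only, because the reads carry no molecular identifiers. No 2 of the 17 libraries held identical counts. Prnp, whose promoter drives the transgenes of a widely used APP/PS1 line, was at 682 CPM or more in every APP/PS1 library and at 555 CPM or less in every WT library. The labels call the material endothelium, pericytes and astrocytic endfeet, and all 6 endothelial, 6 pericyte and 6 astrocyte markers examined were present in it. The 6 endothelial markers (Cldn5 among them) summed to 1855 to 3425 CPM per library. The 6 pericyte markers (Pdgfrb among them) summed to 499 to 834 CPM, and the 6 smooth muscle markers to 125 to 350.1 CPM. Cells outside the vessel wall were present too: the 6 neuronal markers (Snap25 among them) summed to 2898 to 4627 CPM. The 6 choroid plexus markers (Ttr among them) ranged from 27.6 to 8098 CPM, and both of these values come from WT libraries with control peptide. In bulk libraries such as these, fewer cells of a type and less RNA per cell cannot be told apart.

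Positions are those of GENCODE vM21 on GRCm38 (mm10, a build that the submitters' processing notes name). The genes lie on 8 chromosomes: Kcnj10 at chr1:172341210-172374085, Kcnn3 at chr3:89520164-89675132, Trpv4 at chr5:114622152-114658421, Cacna1c at chr6:118587240-119196418, Kcnj8 at chr6:142564837-142571614, Trpm4 at chr7:45302632-45333780, Ano1 at chr7:144588549-144751974, Piezo1 at chr8:122481698-122551329, Kcnj2 at chr11:111066164-111076821 and Kcnma1 at chr14:23289431-24014491. The gene models differ widely in structure. The exons of Kcnj2 merge into 2 blocks of 5444 bases in all, whereas those of Cacna1c merge into 56 blocks of 21191 bases over 27 annotated transcripts. Of the genes in the count table, Ctu2 on the opposite strand shares 2441 exonic bases with Piezo1. The strand setting of the counting is not given in the sources used here, so the level of Piezo1 is uncertain to that extent, and Ctu2 itself was at 11.7 to 20.1 CPM. No other gene in the table shared exonic bases with a member.

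Sequence upstream of the start is shown for 4 members, Piezo1, Ano1, Kcnj2 and Trpv4. The levels of Piezo1 and Ano1 moved together over libraries, and Trpv4 varied most. Kcnj2 had negative log2 changes for genotype over both peptides and inhibitor over both genotypes, as had Ano1, Cacna1c and Kcnma1. Each sequence is the stretch of the 250 bases before the RefSeq start that lies outside annotated exons of the gene. It is given on the strand of the gene, 5′ to 3′, from RefSeq's GRCm38.p6. Capitals mark matches on either strand to GGGCGG, the core of the box bound by Sp1-type factors, and to TATAAA, a core promoter element. The stretches are chr8:122551330-122551579 (minus strand) for Piezo1, chr7:144738593-144738823 (minus strand) for Ano1, chr11:111065914-111066163 (plus strand) for Kcnj2 and chr5:114658422-114658671 (minus strand) for Trpv4.
Piezo1: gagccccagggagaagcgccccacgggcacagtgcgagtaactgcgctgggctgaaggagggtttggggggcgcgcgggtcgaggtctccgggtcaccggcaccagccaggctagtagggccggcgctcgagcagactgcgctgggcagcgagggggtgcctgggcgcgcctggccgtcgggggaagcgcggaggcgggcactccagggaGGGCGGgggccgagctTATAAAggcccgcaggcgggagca
Ano1: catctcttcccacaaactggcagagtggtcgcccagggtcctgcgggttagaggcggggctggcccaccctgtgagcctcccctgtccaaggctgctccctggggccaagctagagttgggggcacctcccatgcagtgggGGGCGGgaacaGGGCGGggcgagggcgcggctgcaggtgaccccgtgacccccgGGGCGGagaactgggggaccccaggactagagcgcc
Kcnj2: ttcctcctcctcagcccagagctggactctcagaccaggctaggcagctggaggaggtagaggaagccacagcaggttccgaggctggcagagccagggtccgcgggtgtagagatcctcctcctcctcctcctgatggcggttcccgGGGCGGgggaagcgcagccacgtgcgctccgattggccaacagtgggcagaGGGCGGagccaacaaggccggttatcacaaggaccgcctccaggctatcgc
Trpv4: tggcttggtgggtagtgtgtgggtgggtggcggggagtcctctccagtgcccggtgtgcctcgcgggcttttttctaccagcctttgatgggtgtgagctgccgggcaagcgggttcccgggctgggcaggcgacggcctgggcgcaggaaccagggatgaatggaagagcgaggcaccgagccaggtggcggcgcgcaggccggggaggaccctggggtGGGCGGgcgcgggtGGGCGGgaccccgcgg
As shown, Piezo1 holds 1 match to GGGCGG and 1 to TATAAA, Ano1 3 to GGGCGG, Kcnj2 2 and Trpv4 2, with overlapping matches counted separately. Over the whole 250 bases, 9 of the 10 members had an entry in the RefSeq table, with 11 starts in all. Kcnj10 held 2 matches to GGGCGG, Kcnma1 3 and the most GC-rich of the 3 starts of Cacna1c 6, while Kcnj8, Kcnn3 and the other 2 starts of Cacna1c held none. Among all 32851 upstream windows of this length, 32.7% held GGGCGG and 12.4% held TATAAA. The CArG box, a motif bound by serum response factor in muscle genes, stood in 1.47% of all windows and in 0 of the 11 of the members. The GC content of the 250 bases was 74.0% for Piezo1, 72.0% for Ano1, 65.6% for Kcnj2 and 72.0% for Trpv4, against a median of 52.4% over all windows. It was 49.2% for Kcnj8, 58.8% for Kcnn3, 62.0% for Kcnj10 and 79.2% for Kcnma1. The 3 starts of Cacna1c had 50.4%, 82.8% and 51.6%. Over all windows the 5th and 95th percentiles were 34.8% and 73.6%. A match describes the letters only. Trpm4 had no entry.

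Levels of different genes were compared as CPM per kilobase of merged exon. On that scale Kcnj10 and Kcnma1 led, at 20.0 ± 4.15 and 19.7 ± 1.95 (SD, n = 17), followed by Cacna1c at 16.1 ± 1.49 and Kcnj2 at 11.4 ± 1.68. The others were lower: Piezo1 at 7.25 ± 1.79, Kcnj8 at 7.08 ± 1.79, Trpv4 at 6.05 ± 2.35, Kcnn3 at 4.45 ± 0.625, Ano1 at 3.93 ± 0.833 and Trpm4 at 3.71 ± 0.754 CPM per kilobase. Among the 18684 tested genes with a length, this placed Kcnj10 at percentile 91.7 and Trpm4 at percentile 44.2. The order held in all 17 libraries at 3 steps: Kcnma1 above Cacna1c, Cacna1c above Kcnj2, and Kcnj2 above Piezo1. The other neighbours changed places between libraries. Kcnj10 was above Kcnma1 in 8 of 17 libraries and Piezo1 above Kcnj8 in 8 of 17. The merged length counts every annotated exon, so genes with many alternative exons, such as Cacna1c, get a lower value on this scale than a single-isoform length would give.

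**Figure D1:**
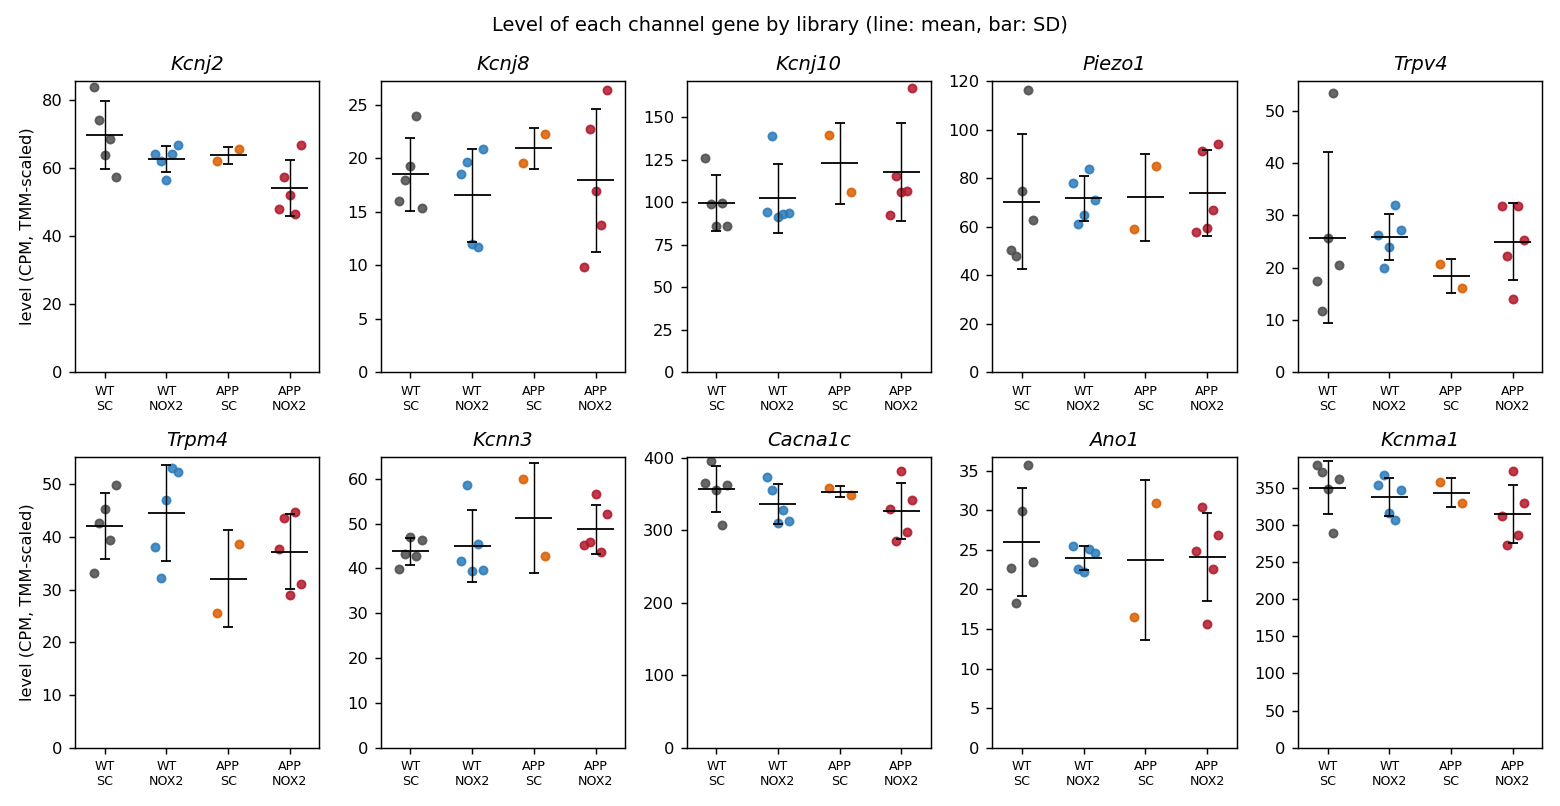
Level of each of the 10 channel genes in CPM on TMM-scaled library sizes (y axis, from 0) in the 4 groups (x axis); each point is a library, the line is the group mean and the bar the SD, with n = 5, 5, 2 and 5 from left to right. The groups overlap for every gene, and the WT library with control peptide at 53.5 CPM of Trpv4 is also the highest for Piezo1 and Ano1.

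The first question was whether the channels differ by genotype. None of the 10 passed: over both peptides the quasi-likelihood test of edgeR, with Benjamini-Hochberg adjustment over all 18753 genes, gave 0 of 10 at an adjusted p under 0.05, against 0.587% of all genes tested. At an unadjusted p under 0.05 there were 2, Kcnj2 and Trpm4, both lower in APP/PS1, where 6.38% of all genes reached it. DESeq2 likewise called 0 of 10, against 0.971% of all genes, and had 2 at an unadjusted p under 0.05, against 6.57%. The log2 changes ran from -0.30 to 0.24, with 4 above 0 and 6 below, and a median of -0.037 against 0.0017 over all genes. With control peptide alone 0 of 10 passed, where 0.0533% of all genes did, and with inhibitor alone 0 of 10, where 0.181% did. In both of these comparisons 0 members had an unadjusted p under 0.05, by edgeR and by DESeq2, against 3.97% and 3.38% of all genes by edgeR. Over all genes DESeq2 had 4.08% and 3.09%.

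Kcnj2 is the potassium sensor of capillary endothelium. Kcnj2 was at 83.6, 74.2, 63.9, 68.5 and 57.4 CPM in the 5 WT libraries with control peptide and at 64.0, 62.0, 56.4, 64.2 and 66.7 CPM in the 5 with inhibitor. The APP/PS1 libraries were at 61.9 and 65.5 CPM with control peptide and at 48.0, 57.2, 52.1, 46.5 and 66.9 CPM with inhibitor. The highest library was WT with control peptide, 3 of the 4 lowest were APP/PS1 with inhibitor, and the ranges of the genotypes overlap. In APP/PS1 the mean was 56.9 CPM ± 8.25 (SD, n = 7), and in WT it was 66.1 CPM ± 8.02 (SD, n = 10). The log2 change was -0.18 ± 0.084 (SE) and did not pass, with an edgeR adjusted p of 0.763. The 95% interval of the change was -21.8% to -0.352%. The log2 change was -0.13 ± 0.14 (SE) with control peptide, or -0.051 without replicate 1 of WT with control peptide, and -0.21 ± 0.11 (SE) with inhibitor.

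Trpm4, a calcium-activated cation channel that depolarizes arteriolar muscle, had the largest negative log2 change of the 10. Trpm4 was at 33.1, 42.5, 45.3, 39.3 and 49.8 CPM in the 5 WT libraries with control peptide and at 38.1, 32.2, 46.9, 53.0 and 52.4 CPM in the 5 with inhibitor. Levels in APP/PS1 were 25.5 and 38.6 CPM with control peptide and 37.7, 43.5, 29.0, 44.6 and 31.0 CPM with inhibitor. The lowest value was an APP/PS1 library with control peptide and the highest a WT library with inhibitor, with overlap between the genotypes in each peptide group. In APP/PS1 the mean was 35.7 CPM ± 7.35 (SD, n = 7), and in WT it was 43.3 CPM ± 7.50 (SD, n = 10). The log2 change was -0.30 ± 0.13 (SE) and did not pass, with an edgeR adjusted p of 0.669 and a 95% interval of -32.7% to -2.55%. It was -0.39 ± 0.22 (SE) with control peptide and -0.26 ± 0.16 (SE) with inhibitor. With control peptide each of the 2 APP/PS1 libraries decided its size, which was -0.12 without replicate 1 and -0.71 without replicate 2.

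Kcnj10, the inward rectifier of astrocytes, had the largest positive log2 change. Kcnj10 was at 126, 99.0, 86.2, 99.7 and 86.1 CPM in the 5 WT libraries with control peptide and at 94.3, 139, 91.3, 92.9 and 93.7 CPM in the 5 with inhibitor. The APP/PS1 libraries were at 139.6 and 106 CPM with control peptide and at 92.6, 115, 106, 107 and 167 CPM with inhibitor. The highest value was an APP/PS1 library with inhibitor, but 2 WT libraries were above 5 of the 7 APP/PS1 libraries. The log2 change was 0.24 ± 0.12 (SE) and did not pass (edgeR adjusted p = 0.809), with a 95% interval of -1.23% to 40.6%. It was 0.30 ± 0.21 (SE) with control peptide and 0.20 ± 0.16 (SE) with inhibitor. Without APP/PS1 replicate 1 or 2 the first was 0.090 or 0.49. Without replicate 5 of APP/PS1 with inhibitor, its highest library, the second was 0.038 and the change over both peptides 0.14, and without replicate 2 of WT with inhibitor the second was 0.34. The astrocyte score, the mean log2 CPM of 6 astrocyte markers, was 7.09 to 7.81 in APP/PS1 libraries and 7.01 to 7.38 in WT libraries. Of its markers, Gfap, a filament protein of reactive astrocytes, was higher in APP/PS1, with a log2 change of 1.20 (edgeR adjusted p = 0.000125), and the other 5 did not pass. Together the 6 summed to 2987 to 4913 CPM in APP/PS1 libraries and 2874 to 4226 CPM in WT libraries. Their part in the genotype values of Kcnj10 was not tested.

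The other 7 channels gave intervals of different width. Those of Cacna1c, the pore of the L-type calcium channel, and Kcnma1, the large-conductance calcium-activated potassium channel, were the narrowest. The log2 change of Cacna1c was -0.032 ± 0.073 (SE) with a 95% interval of -11.9% to 8.68%, and that of Kcnma1 -0.076 ± 0.076 (SE) with -15.0% to 5.88%. Kcnn3, a small-conductance calcium-activated potassium channel, had 0.16 ± 0.093 (SE) and an interval of -2.57% to 27.4%. Piezo1 had 0.041 ± 0.16 (SE) and -18.6% to 30.02%, and Ano1, a calcium-activated chloride channel of mural cells, -0.043 ± 0.15 (SE) and -21.8% to 20.4%. Over the 17 libraries Kcnn3 spanned 39.5 to 60.0 CPM and Kcnj8, the pore of the ATP-sensitive potassium channel, 9.86 to 26.4 CPM, and the groups overlap for both. Kcnj8 and Trpv4 were the least precise, with 0.13 ± 0.17 (SE) and -14.8% to 41.1% for Kcnj8 and -0.19 ± 0.24 (SE) and -38.4% to 24.0% for Trpv4. Leaving out 1 library moved the change of Kcnj8 over 0.027 to 0.23, with the smallest value without replicate 5 of APP/PS1 with inhibitor and the largest without replicate 1 of that group. It moved that of Trpv4 to -0.033 without replicate 4 of WT with control peptide, and that of Kcnn3 to 0.076 without replicate 1 of APP/PS1 with control peptide. None of these 7 passed, with edgeR adjusted p-values of 0.863 or more. A p that misses the threshold does not show that the genotypes are alike; the interval for Trpv4 leaves room for -38.4% as well as for 24.0%.

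**Figure D2:**
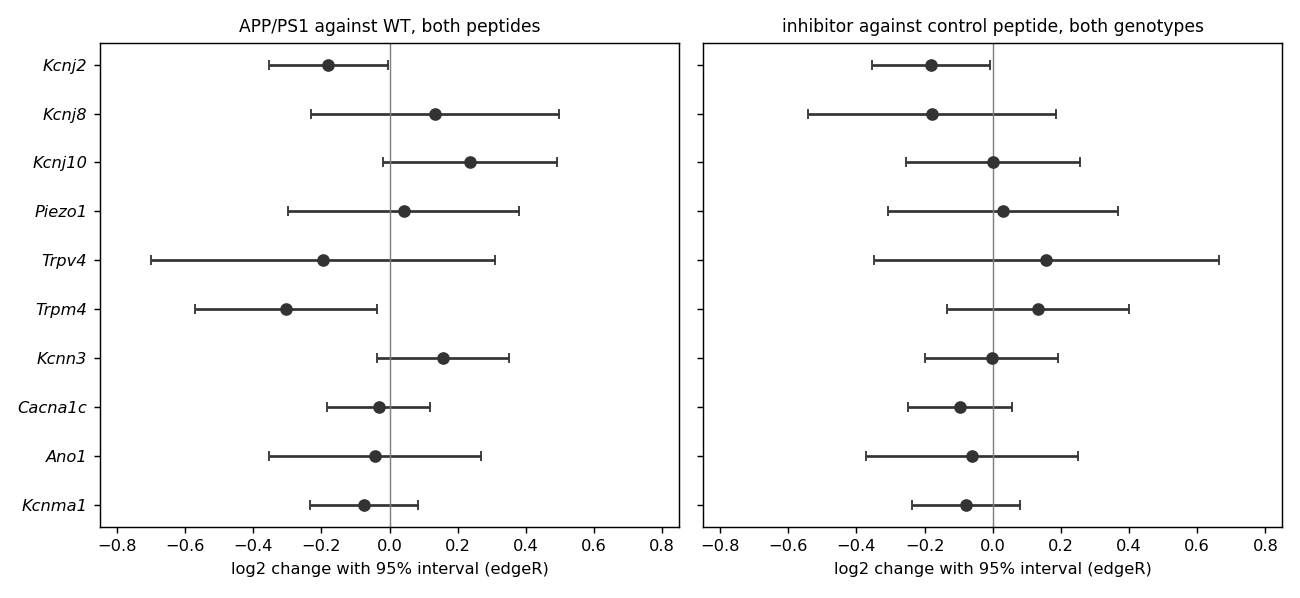
Log2 change of each channel gene with its 95% interval (x axis) for APP/PS1 against WT over both peptides (left) and inhibitor against control peptide over both genotypes (right), from edgeR fits of all 17 libraries. None of the 10 passed in either comparison; the interval of Kcnj2 lies below 0 in both and that of Trpm4 in the first, before adjustment over genes, and Trpv4 has the widest.

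The second question was whether the inhibitor changed the channels. Over both genotypes edgeR called 0 of 10 members, as it did 0% of all genes, and DESeq2 called 0 of 10 and 0% as well. By either tool 1 member had an unadjusted p under 0.05, against 2.11% of all genes by edgeR and 2.11% by DESeq2. That gene was Kcnj2, whose log2 change was -0.18 ± 0.083 (SE), with an edgeR adjusted p of 1.00 and a 95% interval of -21.9% to -0.619%. It had -0.15 ± 0.11 (SE) in WT, or -0.075 without replicate 1 of WT with control peptide, and -0.23 ± 0.14 (SE) in APP/PS1. In each genotype at least 1 library with inhibitor was above at least 1 with control peptide. The comparisons of genotype and inhibitor share libraries, so the same sign of Kcnj2 in both is not 2 independent results.

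The other 9 changes with inhibitor over both genotypes lay between -0.18 for Kcnj8 and 0.16 for Trpv4. Their 95% intervals were -31.3% to 13.7% for Kcnj8, -15.8% to 3.88% for Cacna1c, -15.1% to 5.68% for Kcnma1 and -22.8% to 18.8% for Ano1. For Kcnn3 and Kcnj10, whose changes were closest to 0, they were -12.8% to 14.2% and -16.2% to 19.5%, and for Piezo1, Trpm4 and Trpv4 they were -19.3% to 29.1%, -8.92% to 31.8% and -21.4% to 58.3%. Within WT and within APP/PS1, 0 of 10 passed, and 0% of all genes did in each. By edgeR and by DESeq2, 0 members had an unadjusted p under 0.05 in either genotype, against 1.34% of all genes in WT and 1.8% in APP/PS1 by edgeR. Over all genes DESeq2 had 1.14% in WT and 1.66% in APP/PS1. The interaction term, the inhibitor change in APP/PS1 minus that in WT, was past the threshold for 0 of 10, and for 0% of all genes. By either tool its unadjusted p was under 0.05 for 0 members, against 0.843% of all genes by edgeR and 0.752% by DESeq2. The largest interaction of the 10 was that of Trpv4, 0.44 ± 0.50 (SE) on the log2 scale (edgeR adjusted p = 1.00).

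Trpv4 had the largest SD relative to its mean of the 10. Trpv4 was at 17.4, 11.7, 25.6, 53.5 and 20.4 CPM in the 5 WT libraries with control peptide and at 26.2, 20.0, 23.9, 32.0 and 27.1 CPM in the 5 with inhibitor. Levels in APP/PS1 were 20.7 and 16.1 CPM with control peptide and 31.7, 22.2, 13.9, 31.8 and 25.3 CPM with inhibitor. WT with control peptide held both the lowest and the highest of the 17 values, and all 4 groups overlap. The log2 changes were -0.48 ± 0.41 (SE) for genotype with control peptide, -0.038 ± 0.30 (SE) for genotype with inhibitor, 0.00081 ± 0.30 (SE) for inhibitor in WT and 0.44 ± 0.41 (SE) for inhibitor in APP/PS1.

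The choroid plexus score, the mean log2 CPM of Ttr, Folr1, Kl, Clic6, Kcne2 and Sostdc1, differed between libraries of every group, and its values fell into 7 libraries at 1.18 to 4.13 and 10 at 5.71 to 7.63. The choroid plexus is the epithelium of the ventricles that secretes cerebrospinal fluid, and it expresses Trpv4. Trpv4 was at 11.7 to 25.3 CPM, with a median of 17.4, in the 7 libraries with the lower scores and at 20.4 to 53.5 CPM, with a median of 26.6, in the 10 with the higher scores. Within the 10 libraries Trpv4 followed the score (Pearson r = 0.91, permutation p = 0.00041, adjusted over 20 relations 0.0082; Spearman rho = 0.82, permutation p = 0.00564, adjusted 0.113). Without the 2 libraries farthest from the median score r was 0.82. Within the 7 with the lower scores r was 0.29 (permutation p = 0.528) and rho 0.39 (permutation p = 0.397). Of the 20 relations (10 members in both sets of libraries), this was the 1 with an adjusted p under 0.05. With the score as a covariate, the log2 change of Trpv4 was -0.13 ± 0.20 (SE) for genotype with inhibitor and 0.046 ± 0.20 (SE) for inhibitor in WT. Both were larger in size than without the covariate, where they were -0.038 ± 0.30 (SE) and 0.00081 ± 0.30 (SE). Over both peptides the genotype change was -0.17 ± 0.16 (SE), against -0.19 ± 0.24 (SE) without the covariate. Over both genotypes the inhibitor change was 0.080 ± 0.16 (SE), against 0.16 ± 0.24 (SE). These were smaller in size with the covariate. The change with the covariate was -0.23 ± 0.27 (SE) for genotype with control peptide, 0.14 ± 0.28 (SE) for inhibitor in APP/PS1 and 0.098 ± 0.34 (SE) for the interaction. Without it they were -0.48 ± 0.41 (SE), 0.44 ± 0.41 (SE) and 0.44 ± 0.50 (SE), each larger in size. Without replicate 2 of APP/PS1 with control peptide the changes were -0.31, 0.27 and 0.27, in the same order and without the covariate. Without the WT library with control peptide that is replicate 4, the one at 53.5 CPM, the genotype change with control peptide was -0.024, that with inhibitor over both genotypes 0.45, the interaction -0.014 and the change with inhibitor in WT 0.46. The relation to the choroid plexus score and the covariate were chosen after the values were seen. The part of choroid plexus cells in the values of Trpv4 was not tested.

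Each channel was set first against 1 vascular or glial cell type that expresses it. Kcnj10 followed astrocyte, Piezo1 endothelial, and Ano1 and Kcnj8 pericyte markers. Piezo1 followed pericyte markers as well, and Ano1 and Kcnj8 endothelial ones, so these relations do not tell endothelial cells and pericytes apart. Nor do they set fibroblasts apart for Piezo1 and Ano1. These 2 followed fibroblast markers too, at r = 0.76 and 0.67, in relations chosen after the data were seen. Kcnj2, Trpv4 and Kcnn3 against endothelial and Trpm4 against smooth muscle markers did not pass. Cacna1c and Kcnma1 were opposed to smooth muscle markers and followed neuronal ones. This was examined over the 17 libraries, with 10 members against 5 marker scores (endothelial, pericyte, smooth muscle, astrocyte and neuron), which makes 50 relations. P-values are two-sided, from 100000 permutations, with Benjamini-Hochberg adjustment over the 50 relations, and 16 had an adjusted p under 0.05 for Pearson's r. The libraries share their scaling, and a score and a gene also share the depth of a library. Kcnj10 followed the astrocyte score (Pearson r = 0.81, adjusted permutation p = 0.006, and Spearman rho = 0.77, adjusted permutation p = 0.0101; unadjusted p = 0.00024 and 0.00054), and r was 0.59 without the 2 libraries farthest from the median score, 0.60 within WT and 0.95 within APP/PS1. Within WT, replicate 2 with inhibitor was highest both for Kcnj10, at 7.12 log2 CPM, and for the astrocyte score, at 7.38. The 2 libraries left out were both APP/PS1, and the part of this WT library in the value within WT was not tested. Piezo1, a mechanosensitive channel, followed the endothelial score (Pearson r = 0.70, adjusted permutation p = 0.0123, and Spearman rho = 0.68, adjusted permutation p = 0.0219; unadjusted p = 0.0015 and 0.00371), and r was 0.78 without the 2 libraries farthest from the median score, 0.71 within WT and 0.85 within APP/PS1.

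Ano1, the chloride channel of mural cells, followed the pericyte score (Pearson r = 0.70, adjusted permutation p = 0.0123, and Spearman rho = 0.64, adjusted permutation p = 0.027; unadjusted p = 0.00172 and 0.00648), and r was 0.56 without the 2 libraries farthest from the median score, 0.64 within WT and 0.75 within APP/PS1. Kcnj8, a pericyte gene of the brain, followed the pericyte score (Pearson r = 0.57, adjusted permutation p = 0.049, and Spearman rho = 0.72, adjusted permutation p = 0.0101; unadjusted p = 0.0156 and 0.00142), and r was 0.61 without the 2 libraries farthest from the median score, 0.41 within WT and 0.69 within APP/PS1. Without the 2 libraries of APP/PS1 with control peptide, the relation of Kcnj8 had r = 0.55 and an adjusted permutation p of 0.105. Against the astrocyte score Kcnj8 had r = 0.56 (adjusted permutation p = 0.0546). Against an oligodendrocyte score formed in the same way it had r = 0.57 (permutation p adjusted over 60 relations 0.122). Neither passed, but both r were near that with the pericyte score. Without the 2 farthest libraries they were 0.43 and 0.16. Kcnj2 did not pass against the endothelial score (Pearson r = 0.50, adjusted permutation p = 0.0887, and Spearman rho = 0.45, adjusted permutation p = 0.17; unadjusted p = 0.039 and 0.0714), and r was 0.23 without the 2 libraries farthest from the median score, 0.060 within WT and 0.82 within APP/PS1. The value for Kcnj2 thus rests on the 2 libraries farthest from the median score.

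Cacna1c and Kcnma1 are smooth muscle genes of vessels and are also expressed by neurons. In these libraries both were lower where the smooth muscle score was higher. For Cacna1c this was Pearson r = -0.68, adjusted permutation p = 0.0157, and Spearman rho = -0.73, adjusted permutation p = 0.0101 (unadjusted p = 0.00282 and 0.00131), and r was -0.59 without the 2 libraries farthest from the median score, -0.60 within WT and -0.80 within APP/PS1. For Kcnma1 it was Pearson r = -0.72, adjusted permutation p = 0.0112, and Spearman rho = -0.73, adjusted permutation p = 0.0101 (unadjusted p = 0.00112 and 0.00127), and r was -0.70 without the 2 libraries farthest from the median score, -0.60 within WT and -0.84 within APP/PS1. Against the neuronal score both were positive, Cacna1c with Pearson r = 0.75, adjusted permutation p = 0.00762, and Spearman rho = 0.75, adjusted permutation p = 0.0101 (unadjusted p = 0.00061 and 0.00088). For Kcnma1 the values were Pearson r = 0.81, adjusted permutation p = 0.006, and Spearman rho = 0.82, adjusted permutation p = 0.008 (unadjusted p = 0.00013 and 0.00016). For Cacna1c r was 0.82 without the 2 libraries farthest from the median score, 0.67 within WT and 0.88 within APP/PS1, and for Kcnma1 r was 0.82 without the 2 libraries farthest from the median score, 0.83 within WT and 0.91 within APP/PS1. Trpm4 did not pass against the smooth muscle score (r = -0.011, unadjusted permutation p = 0.963, and rho = 0.0025, permutation p = 0.996). There r was 0.23 without the 2 libraries farthest from the median score, -0.18 within WT and 0.70 within APP/PS1. The difference between the genotypes was not tested. Trpm4 was negatively related to the neuronal score (Pearson r = -0.75, adjusted permutation p = 0.00762, and Spearman rho = -0.74, adjusted permutation p = 0.0101, with unadjusted p = 0.00059 and 0.00118). For this relation r was -0.69 without the 2 libraries farthest from the median score, -0.74 within WT and -0.97 within APP/PS1. Kcnn3 and Trpv4 did not pass against the endothelial score, with r = -0.077 (unadjusted permutation p = 0.766; rho = -0.12, p = 0.646) and r = 0.26 (p = 0.307; rho = 0.066, p = 0.802). For Kcnn3 r was 0.025 without the 2 libraries farthest from the median score, 0.0074 within WT and -0.045 within APP/PS1, and for Trpv4 r was 0.33 without the 2 libraries farthest from the median score, 0.76 within WT and -0.22 within APP/PS1.

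The other 7 relations past the threshold were 4 positive and 3 negative ones. Kcnj8 followed the endothelial score with r = 0.60 (adjusted permutation p = 0.0424; rho = 0.67, adjusted 0.0219; unadjusted 0.011 and 0.00395), and Ano1 did so with r = 0.66 (adjusted permutation p = 0.02; rho = 0.66, adjusted 0.0227; unadjusted 0.00401 and 0.00454). Piezo1 followed the pericyte score with r = 0.69 (adjusted permutation p = 0.0135; rho = 0.63, adjusted 0.0286; unadjusted 0.00216 and 0.00744). Against the neuronal score Piezo1 had r = -0.58 (adjusted permutation p = 0.049; rho = -0.62, adjusted 0.0322; unadjusted 0.0157 and 0.00901) and Trpv4 r = -0.60 (adjusted permutation p = 0.0424; rho = -0.65, adjusted 0.027; unadjusted 0.00958 and 0.00598), both lower where neuronal markers were higher. Trpm4 was opposed to the astrocyte score with r = -0.60 (adjusted permutation p = 0.0429; rho = -0.61, adjusted 0.0396; unadjusted 0.012 and 0.0119). Kcnn3, which astrocytes also express, followed the astrocyte score with r = 0.61 (adjusted permutation p = 0.0424; rho = 0.53, adjusted 0.101; unadjusted 0.0105 and 0.0322). Within WT, replicate 2 with inhibitor was highest both for Kcnn3, at 5.88 log2 CPM, and for the astrocyte score, at 7.38. The part of this library in the relation of Kcnn3 was not tested. In the order Kcnj8 and Piezo1 with endothelial and pericyte scores, Piezo1 and Trpv4 with the neuronal, Trpm4 and Kcnn3 with the astrocyte and Ano1 with the endothelial score, r was 0.61, 0.67, -0.55, -0.59, -0.37, 0.44 and 0.64 without the 2 libraries farthest from the median score. It was 0.27, 0.64, -0.74, -0.74, -0.55, 0.66 and 0.72 within WT and 0.82, 0.84, -0.33, -0.40, -0.34, 0.39 and 0.62 within APP/PS1 in the same order. Without the 2 libraries of APP/PS1 with control peptide, 4 of these 7 no longer passed, at an adjusted permutation p of 0.0872 for Kcnj8, 0.104 for Piezo1 with the neuronal score, 0.132 for Trpm4 and 0.0872 for Kcnn3.

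**Figure D3:**
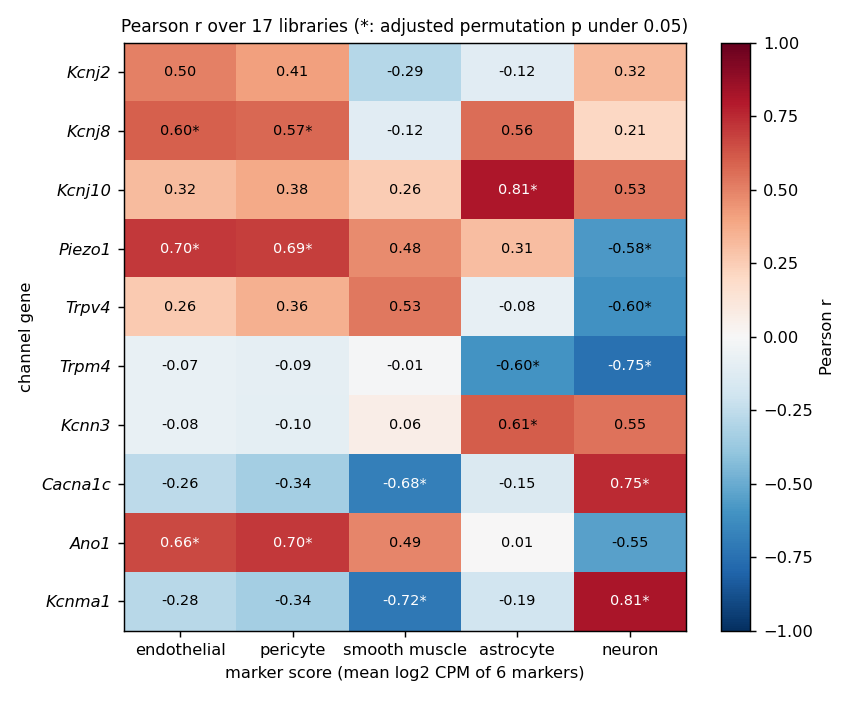
Pearson r over 17 libraries between the log2 CPM of each channel gene (rows) and 5 marker scores (columns), with red positive and blue negative; a star marks an adjusted permutation p under 0.05 over the 50 relations. Among these 5 scores Kcnj10 is highest with the astrocyte score (0.81), Piezo1 with the endothelial (0.70), Ano1 with the pericyte (0.70), and Cacna1c and Kcnma1 with the neuronal score (0.75 and 0.81). Piezo1 is at 0.69 with the pericyte score, Ano1 at 0.66 with the endothelial, and Kcnj8 at 0.60 with the endothelial and 0.57 with the pericyte.

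Among the members themselves, 8 of 45 pairs had a permutation p under 0.05 after Benjamini-Hochberg adjustment over the 45. The closest pair was Cacna1c and Kcnma1 (Pearson r = 0.89, permutation p = 1.00e-05, adjusted 0.00045; Spearman rho = 0.91, permutation p = 1.00e-05, adjusted 0.00045), and r was 0.82 without the 2 libraries farthest from the median of Cacna1c, 0.80 within WT and 0.99 within APP/PS1. A p of 1.00e-05 is the smallest that these permutations can give. Cacna1c was at 365, 396, 356, 307 and 362 CPM in the 5 WT libraries with control peptide and at 374, 356, 309.9, 328 and 313 CPM in the 5 with inhibitor. The APP/PS1 libraries were at 358 and 348 CPM with control peptide and at 329.8, 285, 381, 297 and 341 CPM with inhibitor. Both genes were lowest in the same library, replicate 2 of APP/PS1 with inhibitor, and each was highest in a library of WT with control peptide. Kcnma1 was at 379.9, 370.2, 348, 289 and 362 CPM in the 5 WT libraries with control peptide and at 354, 366, 316, 307 and 346 CPM in the 5 with inhibitor. Levels in APP/PS1 were 357 and 329 CPM with control peptide and 312, 273, 372, 286 and 329 CPM with inhibitor. The groups overlap for both genes, whose values stayed within a narrow range.

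Piezo1, which senses force, and Ano1 came next (Pearson r = 0.79, permutation p = 0.00023, adjusted 0.00517; Spearman rho = 0.81, permutation p = 0.00018, adjusted 0.00405), and r was 0.72 without the 2 libraries farthest from the median of Piezo1, 0.89 within WT and 0.78 within APP/PS1. Piezo1 was at 50.4, 47.9, 74.7, 116 and 62.7 CPM in the 5 WT libraries with control peptide and at 77.9, 60.9, 64.99, 83.7 and 71.1 CPM in the 5 with inhibitor. The APP/PS1 libraries were at 59.3 and 84.9 CPM with control peptide and at 57.7, 91.4, 59.3, 66.8 and 94.3 CPM with inhibitor. The group of WT with control peptide held both the lowest and the highest value of Piezo1. Ano1 was at 22.7, 18.2, 29.9, 35.6 and 23.4 CPM in the 5 WT libraries with control peptide and at 25.4, 22.6, 22.2, 25.1 and 24.6 CPM in the 5 with inhibitor. Levels in APP/PS1 were 16.6 and 30.9 CPM with control peptide and 24.8, 30.4, 15.6, 22.6 and 26.9 CPM with inhibitor. The same WT library, replicate 4 with control peptide, was highest for both genes, and all 4 groups overlap.

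Kcnj10 and Trpm4 were opposed (Pearson r = -0.74, permutation p = 0.00077, adjusted 0.0115; Spearman rho = -0.70, permutation p = 0.00243, adjusted 0.0273), and r was -0.64 without the 2 libraries farthest from the median of Kcnj10, -0.84 within WT and -0.52 within APP/PS1. Trpv4 was positively related to Piezo1 (r = 0.64, permutation p = 0.00571, adjusted 0.0321; rho = 0.50, permutation p = 0.0412, adjusted 0.169), with r = 0.97 within WT and r = -0.047 within APP/PS1, a difference that was not tested. Without the 2 libraries farthest from the median of Piezo1, r was 0.45, so the pooled value rests in part on those libraries. The other 4 pairs were negative: Trpm4 with Kcnn3 (r = -0.68), Trpv4 with Kcnma1 (-0.66), Trpv4 with Cacna1c (-0.66) and Piezo1 with Kcnma1 (-0.65). Their adjusted permutation p-values were 0.0272, 0.0272, 0.0272 and 0.0301, in the same order, and the Spearman rho were -0.44, -0.74, -0.66 and -0.66, with adjusted permutation p-values of 0.232, 0.0162, 0.0396 and 0.0396. The unadjusted permutation p-values of r were 0.00251, 0.0033, 0.00363 and 0.00469, and those of rho 0.0773, 0.00108, 0.00528 and 0.00485. The relation of Trpm4 to Kcnn3 thus passed by r and not by rho. Without the 2 farthest libraries r was -0.42, -0.56, -0.53 and -0.61. Within WT it was -0.31, -0.84, -0.76 and -0.83, and within APP/PS1 -0.93, -0.63, -0.63 and -0.43.

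**Figure D4:**
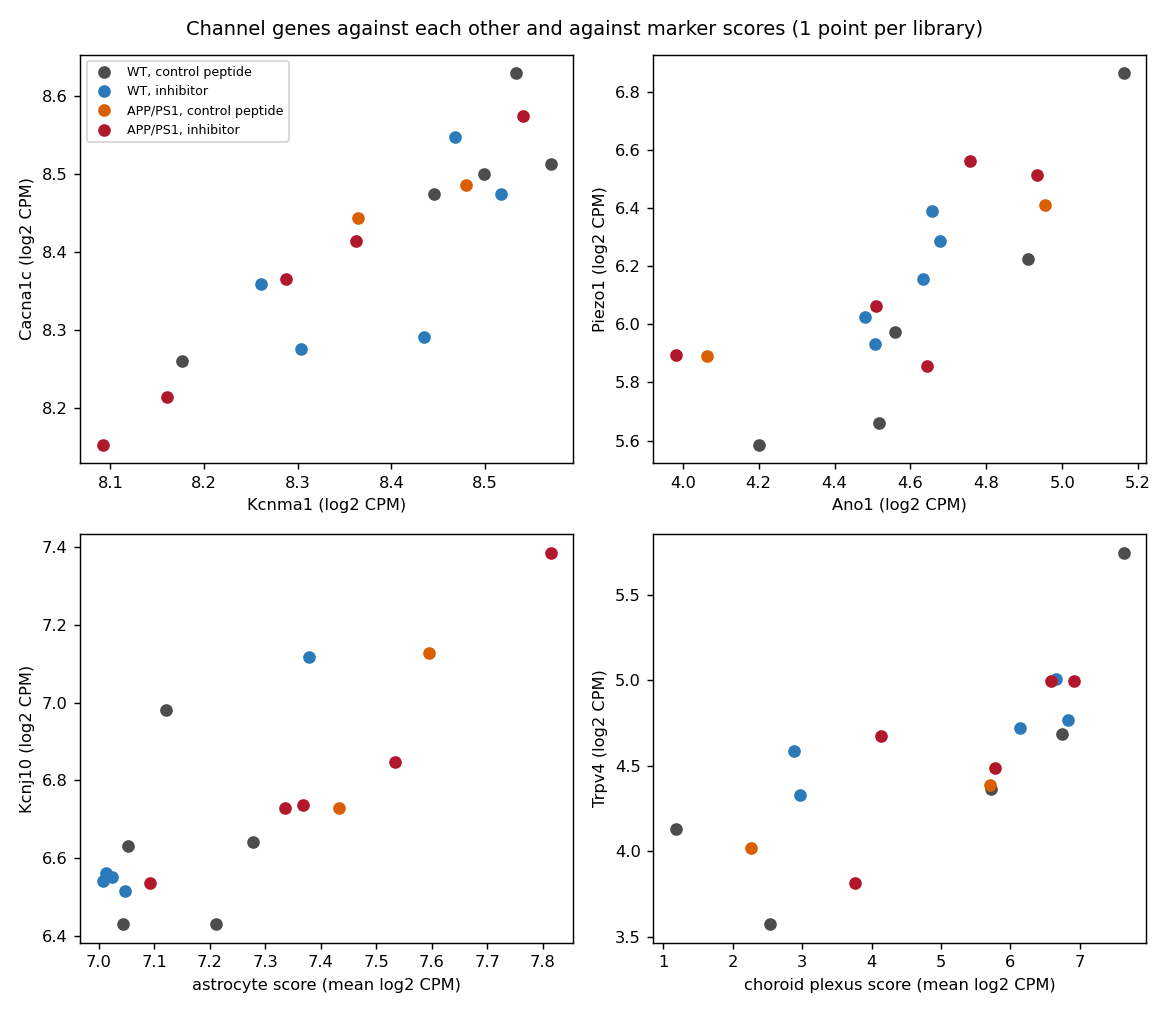
Log2 CPM of Cacna1c against Kcnma1 (top left), Piezo1 against Ano1 (top right), Kcnj10 against the astrocyte score (bottom left) and Trpv4 against the choroid plexus score (bottom right), with 1 point per library coloured by group. Pearson r is 0.89, 0.79 and 0.81 over the 17 libraries in the first 3 panels. In the last, the 7 libraries with scores up to 4.13 hold Trpv4 at 11.7 to 25.3 CPM. The 10 with higher scores hold it at 20.4 to 53.5 CPM, so the ranges overlap.

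The tested genes most like each member over the 17 libraries, by Pearson r of log2 CPM among the 13379 genes with a mean of at least 5 CPM, are given as a description. They were Mansc1 (r = 0.88, rho = 0.76), 1190002N15Rik (r = 0.84, rho = 0.88) and B3galnt1 (r = 0.82, rho = 0.67) for Kcnj2, and Cpd (r = 0.91, rho = 0.91), Nomo1 (r = 0.91, rho = 0.84) and Mcfd2 (r = 0.89, rho = 0.90) for Kcnj8. For Kcnj10 they were Coro1c (r = 0.94, rho = 0.83), Fam20a (r = 0.92, rho = 0.86) and Basp1 (r = 0.91, rho = 0.77). For Piezo1 they were Fam129a (r = 0.96, rho = 0.95), Oaz2 (r = 0.95, rho = 0.91) and Ctnnb1 (r = 0.94, rho = 0.93), and for Trpv4 Itpripl1 (r = 0.94, rho = 0.92), Ace (r = 0.93, rho = 0.91) and Igfbp2 (r = 0.92, rho = 0.89). Trpm4 was most like Cc2d1b (r = 0.96, rho = 0.93), Cul9 (r = 0.96, rho = 0.94) and Ehmt2 (r = 0.95, rho = 0.93), and Kcnn3 most like P4ha1 (r = 0.82, rho = 0.62), Usp10 (r = 0.82, rho = 0.75) and Dio2 (r = 0.80, rho = 0.62). For Cacna1c they were Adgrl3 (r = 0.91, rho = 0.90), Kcnma1 (r = 0.89, rho = 0.91) and Epha5 (r = 0.88, rho = 0.91), and for Kcnma1 Adgrl3 (r = 0.94, rho = 0.93), Slit3 (r = 0.93, rho = 0.93) and Cdh10 (r = 0.92, rho = 0.95), so that both share Adgrl3, an adhesion receptor of neurons. Ano1 was most like Fam114a1 (r = 0.91, rho = 0.93), Ggt5 (r = 0.88, rho = 0.85) and Lnx2 (r = 0.87, rho = 0.85).

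The wider machinery was read from 4 lists of 64 genes in all: 32 subunits and related channels, 11 genes of calcium stores and entry, 17 receptors and signalling enzymes, and 4 connexins. All 64 were tested, and edgeR called 0 of them in each of the 7 comparisons. Over all genes edgeR called 0.587% for genotype over both peptides, 0.0533% with control peptide, 0.181% with inhibitor and 0% in the others. DESeq2 called 3 for genotype over both peptides, Abcc8, Cacna1h and P2ry6, with adjusted p-values of 0.0165, 0.0209 and 0.0291, and 0 in the other 6. Over all genes DESeq2 called 0.971% for genotype over both peptides. At an unadjusted p under 0.05 edgeR had 4 for genotype over both peptides, 4 with control peptide, 3 with inhibitor, 0 for each of the 3 inhibitor effects and 1 for the interaction. Over all genes edgeR had 6.38%, 3.97% and 3.38% at that level in the first 3 and 0.843% for the interaction, and the 4 of 64 for genotype over both peptides are 6.25%. For the inhibitor it had 1.34% in WT, 1.8% in APP/PS1 and 2.11% over both genotypes. DESeq2 had 4, 4 and 3 in the first 3, against 6.57%, 4.08% and 3.09% of all genes. In the others it had 0, against 0.752% to 2.11% of all genes. The median log2 change for genotype over both peptides was -0.034 for the related channels, -0.032 for calcium stores, 0.019 for receptors and signalling and 0.099 for connexins. Abcc8, the sulfonylurea receptor of neurons and pancreatic beta cells, had the smallest p for genotype over both peptides, with a log2 difference of -0.27 ± 0.068 (SE, edgeR adjusted p = 0.0954). It was at 50.1 to 64.5 CPM in APP/PS1 and at 60.4 to 79.2 CPM in WT libraries. P2ry6, a nucleotide receptor found on microglia as well as on muscle, was next with 0.67 ± 0.17 (SE, edgeR adjusted p = 0.101), at 3.29 to 6.82 CPM in APP/PS1 and 2.18 to 5.03 CPM in WT. Of 5 microglia markers reported here, 3 (Cx3cr1, P2ry12 and Csf1r) were called higher in APP/PS1 in the same comparison, and Tmem119 and Aif1 did not pass. The whole microglia list, with 1 further marker, summed to 205 to 385 CPM in APP/PS1 and 171 to 238 CPM in WT libraries. Their part in the value of P2ry6 was not tested. Leaving out 1 library brought P2ry6 under the threshold, with an adjusted p of 0.0389 without replicate 1 of WT with control peptide and 0.0497 without replicate 1 of APP/PS1 with inhibitor. Without replicate 4 of WT with inhibitor it was Cacna1h that passed, at 0.0201. Cacna1h, a T-type calcium channel, had the smallest p with control peptide, at -0.37 ± 0.10 (SE, edgeR adjusted p = 0.558), followed by Abcc8 at -0.34 ± 0.12 (SE, edgeR adjusted p = 0.911). With inhibitor Abcc8 and P2ry6 led, at -0.24 ± 0.087 (SE, edgeR adjusted p = 1.00) and 0.61 ± 0.23 (SE, edgeR adjusted p = 1.00). Abcc9, the partner of Kcnj8 in pericytes, was at 84.98 to 134 CPM in WT and 82.7 to 139 CPM in APP/PS1 libraries, and its genotype change on the log2 scale was -0.019 ± 0.10 (SE, edgeR adjusted p = 0.999). It is named for its pairing with Kcnj8, after its values were seen.

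For the inhibitor effects on these lists the smallest p-values belonged to Agtr1a, the angiotensin receptor of muscle, and Gja5, an arterial connexin, in WT, with log2 changes of 0.74 ± 0.39 (SE, edgeR adjusted p = 1.00) and 0.49 ± 0.31 (SE, edgeR adjusted p = 1.00). In APP/PS1 they belonged to Cacna2d1, a subunit of voltage-gated calcium channels, and Kcnk2, a tandem-pore potassium channel, with -0.23 ± 0.15 (SE, edgeR adjusted p = 1.00) and -0.24 ± 0.16 (SE, edgeR adjusted p = 1.00). Over both genotypes they belonged to Cacna2d1 and Kcnq5, with -0.16 ± 0.088 (SE, edgeR adjusted p = 1.00) and -0.20 ± 0.12 (SE, edgeR adjusted p = 1.00), and for the interaction to Agtr1a and Cacna1h, with -1.29 ± 0.59 (SE, edgeR adjusted p = 1.00) and 0.20 ± 0.13 (SE, edgeR adjusted p = 1.00). Agtr1a rests on 21 counts or fewer per library.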

How the data were processed

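Microvessels were isolated from cortex with dextran, ribosomal RNA was removed and the library kit keeps strand, per the labels' protocols. The deposited table holds the authors' raw counts per Ensembl gene. The submitters' processing notes name cutadapt, STAR, HTSeq, DESeq2 and the builds mm10 and GRCh37, without roles, and the annotation, the strand setting and any filter are not given in the sources used here. The 20 columns of values whose names match no sample were not used here. Symbols and exon lengths came from GENCODE vM21: 42329 IDs matched and 358 did not.

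Genes were kept with edgeR's filterByExpr, scaled by TMM and tested over the whole table with edgeR 4.0.16's quasi-likelihood F test (limma 3.58.1, R 4.3.3) in all 17 libraries, since the group of 2 then shares the spread of the others. Single contrasts and the interaction came from group means, and an additive model gave the effects of genotype and inhibitor over the other factor. P-values were adjusted by Benjamini-Hochberg over 18753 genes, threshold 0.05. Standard errors come from the estimate and its F statistic, and 95% intervals from the t distribution with the fit's degrees of freedom. Levels on the log2 scale used a prior count of 2. The code was tested on simulated data. Any 2 libraries of a group differed by a chi-square per degree of freedom of 5.37 or more, so none was 1 library deposited again. Alternatives were DESeq2 size factors, DESeq2 1.42.0, no filter, leaving out each library and, added later, a choroid plexus covariate. Named were the 10 members, list genes past the threshold or with the 2 smallest p-values of a comparison, 3 most alike genes per member, App, Prnp and markers (App had a log2 change of 0.73 by genotype over both peptides, edgeR adjusted p = 0.00631). The single value of 1 marker is not reported here. The members, lists and rules were chosen with earlier results of these data known.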

Additional observations from a re-analysis of the deposited data

Results flagged for a closer look

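In replicate 2 of WT with inhibitor the level of Kcnj10 stood apart from its group, at 7.12 log2 CPM against 6.52 to 6.56 in the other 4. The gap was 0.922 of the range of the group, above Dixon's 95% critical value of 0.71. The astrocyte score was 7.38 in this library and 7.01 to 7.05 in the others, and its part in the level of Kcnj10 was not tested. Of 30 groups of 5 libraries examined (10 members in 3 groups), this was the 1 that stood apart, where chance gives about 5%.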

How the results depend on the processing

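The count of members called was 0 in each of the 113 alternative fits of the 7 comparisons, and the smallest adjusted p of a member in them was 0.285. The DESeq2 test called 182 of all genes for genotype over both peptides, against 110 by edgeR, 45 against 10 with control peptide and 61 against 34 with inhibitor. Of the other channel and signalling genes, the DESeq2 test called 3 for genotype over both peptides against 0, and fits without 1 library called 0 to 1. No log2 change that changed sign was called. Under DESeq2 size factors, the DESeq2 test and no filter, Trpv4 had -0.012, -0.0083 and -0.0075 for inhibitor in WT, and Kcnj10 -0.0060, -0.0058 and -0.0026 for inhibitor over both genotypes. With the choroid plexus covariate Piezo1 had -0.015 for inhibitor over both genotypes. Kcnj2 had -0.15 ± 0.080 (SE) there, with an unadjusted edgeR p of 0.0751 against 0.0403 without the covariate. For genotype over both peptides the unadjusted edgeR p became smaller with it for Kcnj2 (0.0311 against 0.0443), Kcnj10 (0.0416 against 0.0667) and Trpm4 (0.0233 against 0.0276). Leaving out 1 library at a time gave ranges across 0 for genotype over both peptides in Piezo1 (-0.025 to 0.13), Ano1 (-0.14 to 0.073) and Abcc9 (-0.091 to 0.037), and for inhibitor over both genotypes in Kcnj10 (-0.084 to 0.067), Piezo1 (-0.037 to 0.19), Kcnn3 (-0.077 to 0.079) and Ano1 (-0.18 to 0.037). For Trpv4 they were -0.14 to 0.11 for genotype with inhibitor, -0.18 to 0.46 for inhibitor in WT and -0.014 to 0.64 for the interaction, the last crossing 0 without replicate 4 of WT with control peptide. For inhibitor over both genotypes the lowest value of Kcnj10 came without replicate 2 of WT with inhibitor and the highest of Piezo1 without replicate 4 of WT with control peptide. Fits that leave 1 APP/PS1 library with control peptide assume that it varies like the other groups. Kcnj2 kept its sign for genotype (-0.23 to -0.15) and inhibitor (-0.22 to -0.14), and Trpm4 for genotype (-0.37 to -0.22). The relation of Kcnj8 to the pericyte score had r = 0.55 and an adjusted permutation p of 0.105 without the APP/PS1 libraries with control peptide; the cause was not tested, beyond the fewer libraries. The other 9 relations of a member to its presumed cell type stayed on their side of the threshold there, and all 10 did with DESeq2 size factors. No paired analysis was possible because the labels give no replicate numbers that groups share. The 2 APP/PS1 libraries with control peptide enter 5 of the 7 comparisons.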

Other observations

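The members were also set against 5 further marker scores (oligodendrocyte, microglia, fibroblast, erythroid and neutrophil) and the choroid plexus score, 60 relations in all, chosen after the data were seen, with p-values adjusted over the 60. No value over all 17 libraries is given for the 10 relations to the choroid plexus score, because the libraries fell into 2 separate sets by it. The erythroid and neutrophil scores rest on 3 tested markers each, and 4 of the 50 relations with these 5 scores had an adjusted p under 0.05 for r. Piezo1 followed the score of perivascular and leptomeningeal fibroblasts, r = 0.76 (permutation p = 0.00048, adjusted 0.0144; rho = 0.76, permutation p = 0.00058, adjusted 0.0174; r = 0.73 without the 2 farthest libraries, 0.71 within WT and 0.85 within APP/PS1). Ano1 followed it as well, r = 0.67 (permutation p = 0.00361, adjusted 0.0433; rho = 0.66, permutation p = 0.00508, adjusted 0.0542; r = 0.68 without the 2 farthest libraries, 0.59 within WT and 0.90 within APP/PS1). Kcnma1 was opposed to it, r = -0.71 (permutation p = 0.00152, adjusted 0.0304; rho = -0.71, permutation p = 0.00189, adjusted 0.0283; r = -0.68 without the 2 farthest libraries, -0.78 within WT and -0.62 within APP/PS1). Kcnj10 followed the microglia score, r = 0.67 (permutation p = 0.00354, adjusted 0.0433; rho = 0.74, permutation p = 0.001, adjusted 0.02; r = 0.61 without the 2 farthest libraries, 0.60 within WT and 0.67 within APP/PS1). The microglia score was 4.45 to 5.26 in APP/PS1 libraries and 4.11 to 4.499 in WT libraries. The part of genotype in this relation was not tested beyond the values within each genotype.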
